A study of Mus musculus with 4 samples.

Results

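The insulin and insulin-like growth factor (IGF) system was followed through 10 genes, of 20377 in the deposited table. They encode the ligands (Ins1, Ins2, Igf1, Igf2), the receptors (Insr, Insrr, Igf1r, Igf2r) and the receptor substrates (Irs1, Irs2). The genes were taken by symbol, and all 10 had a row. The cells were primary gallbladder cells of MIP-GFP mice, which carry a green fluorescent reporter under an Ins1 promoter on a C57BL/6 background, aged 8 weeks. They had been grown in medium with an insulin, transferrin and selenium supplement and were reprogrammed over 10 days with Pdx1, Ngn3 (Neurog3), Mafa and PAX6 plus compounds that the labels do not name. Cells positive for the reporter were sorted by flow cytometry and sequenced from total RNA as 4 libraries of 1 group, rGBC2. The labels do not tie the libraries to animals or cultures, so the spread between them may be partly technical. The SDs and tests below take the 4 libraries as independent, which the labels do not settle. Levels are RPKM, that is reads scaled to transcript length and library size, and positions are in build mm9 unless another is named. No other cell population was analysed here.

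Insulin is the hormone by which beta cells lower blood glucose, and mice, unlike humans, make it from a pair of genes, Ins1 and Ins2. Insulin acts mainly on the receptor Insr, while IGF1 and IGF2 act mainly on Igf1r. Both receptors are tyrosine kinases that signal through the docking proteins Irs1 and Irs2 to the PI3K-Akt and Ras-MAPK branches. In beta cells, Irs2 is the substrate best known for keeping up cell mass. Igf2r has no kinase and takes up IGF2 for breakdown.

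The promoter of Ins1 is shown because the sort used it and because delivered factors such as Pdx1 and Mafa are known to act on insulin promoters. The RefSeq window of build GRCm38.p6, from 250 bases before to 50 bases after the annotated start, lies at chr19:52264047-52264346 on the plus strand. Capitals mark matches, on either strand, to TAAT (the core of A boxes, bound by homeodomain factors such as Pdx1) and CATCTG (an E box, bound by bHLH factors such as Neurod1).
Ins1: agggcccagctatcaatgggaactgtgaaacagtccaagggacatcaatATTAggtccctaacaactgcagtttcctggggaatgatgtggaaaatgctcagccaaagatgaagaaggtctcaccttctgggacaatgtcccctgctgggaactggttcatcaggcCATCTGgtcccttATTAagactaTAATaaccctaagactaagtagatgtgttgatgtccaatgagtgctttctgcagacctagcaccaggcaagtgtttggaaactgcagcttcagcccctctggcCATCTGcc

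TAAT was found 3 times, first letters at -201, -71 and -61 from the start, and CATCTG 2 times, at -84 and 43. None of these matches overlaps another. The first of these E boxes lies before the start and the other after it. Among 32851 promoter windows of the same length, 58.0% held TAAT and 17.2% held CATCTG. The looser E box CANNTG, whose matches include those of CATCTG, was found 4 times and is held by 72.3% of windows. A match is a string of letters and not a measured binding site. The letters TATAAA lie at base 123 of the annotated Ins1 transcript, beyond the end of this window, and whether transcription starts at the annotated start was not tested.

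**Figure D1:**
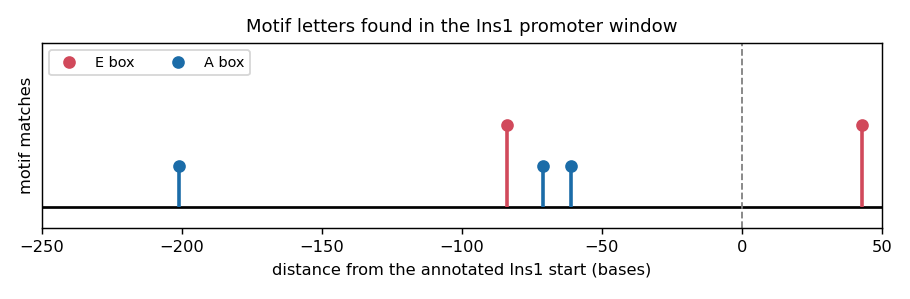
Matches to the motif letters in the Ins1 promoter window, by distance in bases from the annotated start (dashed line), which was not tested as the start in use. Heights only separate the motifs. The 3 A box matches lie before the start, and 1 of the 2 E box matches lies after it, at 43.

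Of 10 insulin gene transcription factors, 7 lay above 1 RPKM and 2 below it, with a median of 16.6 RPKM. The threshold was tested with limma's moderated test and Benjamini-Hochberg adjustment over 16919 genes. Across all genes tested, 65.0% were called above and 26.1% below, close to the shares among these factors, and 4 of the 7 were delivered. The delivered factors stood at 3180 ± 829 RPKM for Pdx1, 2092 ± 540 RPKM for Neurog3, 1977 ± 541 RPKM for Mafa and 1663 ± 433 RPKM for Pax6 (SD, n = 4), delivered and endogenous transcripts together. Neurod1, at 9.64 ± 5.63 RPKM, was not among the factors named as delivered. The beta-cell factor Nkx6-1 lay below 1 RPKM. It did not exceed 0.03 RPKM and was listed at 0 in replicates 2 and 3.

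In these libraries 1 RPKM on a transcript of 1 kilobase stood for an estimated 22.2 to 32.9 reads, so 3 reads on a transcript of 1 kilobase are worth 0.0911 to 0.135 RPKM. Of 6 beta-cell markers 4 lay above 1 RPKM, while Nkx6-1 and Ucn3 (0 to 0.14 RPKM) lay below it. Of 6 biliary markers 5 lay above it, with Sox9 in neither direction. For scale, 65.0% of all genes tested were called above and 26.1% below. In bulk RNA, fewer cells of a type and less transcript per cell cannot be told apart. Y-linked Eif2s3y stood at 48.5 RPKM in replicate 1 and 44.7 RPKM in replicate 2, whereas replicates 3 and 4 had it listed at 0. The Y-linked genes Ddx3y (26.85 and 38.16 RPKM) and Kdm5d (8.16 and 9.21 RPKM) had the same split. The sex of the source animals is not stated here. Some genes given below, such as Irs1, Irs2, Csf1r, Ide and Pcsk2, divide the libraries in the same way. Replicates 3 and 4 were also the pair nearest each other, although they differed beyond sampling noise (chi-square per degree of freedom 13.4, against 141 to 347 for the other pairs). The part of the Y-linked split, or of this likeness of replicates 3 and 4, in the results was not tested.

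Of the 10 genes, 8 lay above 1 RPKM and 2, Igf1 and Irs1, below it, beside 65.0% above and 26.1% below over all genes tested. Their median level was 18.1 RPKM, beside 6.99 RPKM over all genes tested. The sort selected for an active Ins1 promoter, so the place of the insulin genes above 1 RPKM was selected for. By mean log2(RPKM + 1) the order was Ins2, Ins1, Igf2r, Irs2, Igf2, Igf1r, Insr, Insrr, Irs1 and Igf1. Within libraries, neighbours in this order differed by more than the SD of their difference except at 2 places. Irs2 exceeded Igf2 by 0.02 ± 0.20 on the log2 scale, in 1 of 4 libraries, and Insr exceeded Insrr by 0.53 ± 0.78, in 3 of 4. Ins1 exceeded Igf2r by 1.78 ± 1.25, also in 3 of 4, with 107.13 against 107.94 RPKM in replicate 1. The order was chosen from these same values and is a description.

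**Figure D2:**
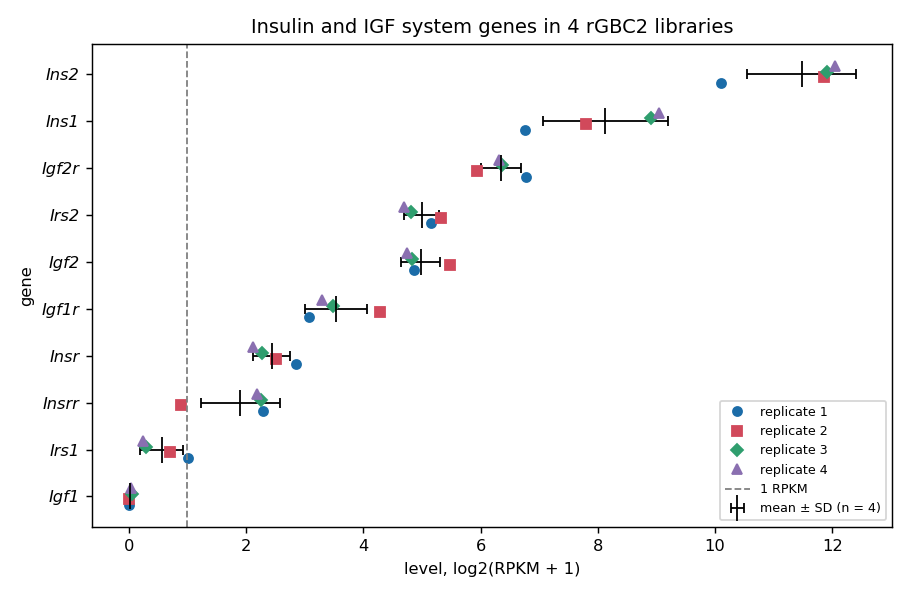
Levels of the 10 genes in each rGBC2 library on the log2(RPKM + 1) scale, with the mean and SD over 4 libraries and a dashed line at 1 RPKM. Ins2 is highest and Igf1 lowest. Replicate 1 sits apart for Ins2, and replicate 2 for Igf2 and Insrr.

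Ins2 was the highest of the 10 genes and one of the most abundant transcripts of the cells. Its gene lies at chr7:149864561-149865613 on the minus strand. It was measured at 1091, 3704, 3851 and 4240.2 RPKM in replicates 1 to 4 and ranked 21, 5, 8 and 8 among all genes. Replicate 1 was low and the other libraries lay close together. Ins1, at chr19:52338813-52339948 on the plus strand, stood at 107, 222, 481 and 523 RPKM and ranked 739, 313, 112 and 111. Both genes were lowest in replicate 1, but replicate 2 was near replicates 3 and 4 for Ins2 and below them for Ins1. Together they took 0.249% of the summed RPKM in replicate 1 and 0.748%, 0.775% and 0.819% in replicates 2 to 4. Few genes varied as much between libraries. Of 11967 genes with a mean of at least 1 RPKM, 2.74% had a larger SD on the log2 scale than Ins1 and 4.70% a larger one than Ins2.

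Ins2 made up 91.1%, 94.3%, 88.9% and 89.0% of insulin RPKM in replicates 1 to 4. The Ins2 to Ins1 ratio was 10.2, 16.6, 8.00 and 8.10, highest in replicate 2. The difference was 3.35 ± 0.49 on the log2(RPKM + 1) scale, positive in 4 of 4 libraries. The exact two-sided sign-flip permutation test gave p = 0.13, the smallest value that 4 libraries allow, and it gave the same value for each of the 6 pairs of genes tested (unchanged by Benjamini-Hochberg adjustment over the 6). No pair can therefore pass 0.05.

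This ratio depends on the gene models. RPKM divides by transcript length, and in GENCODE the transcript matched to the Ins2 row has 478 bases, against 1062 for Ins1. The coding parts are alike, with 333 bases for Ins2 and 327 for Ins1. The Ins2 model has 91 bases before and 54 after its coding part, against 209 and 526 for Ins1. The sources do not give the lengths the authors used. The deposited rows span 1136 bases of genome for Ins1 and 1053 for Ins2, each less than the GENCODE model, so the authors' lengths may differ from these. With the GENCODE lengths, the ratio without length scaling is 4.58, 7.49, 3.60 and 3.65 in replicates 1 to 4. Its mean is 4.83 ± 1.83 (SD, n = 4), against 10.7 ± 4.07 per kilobase, and Ins2 stays higher in 4 of 4 libraries. This scaling was chosen after the data were seen.

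The coding parts of the insulin genes are 92.4% identical over 327 aligned bases. The longest run they share, 56 bases at the end of the coding part, is shown in capitals with the bases around it, from coding base 259 to 333 of Ins2 and 253 to 327 of Ins1 (GENCODE transcripts, GRCm38).
Ins2: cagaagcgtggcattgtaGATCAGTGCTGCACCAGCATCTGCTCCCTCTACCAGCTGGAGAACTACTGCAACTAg
Ins1: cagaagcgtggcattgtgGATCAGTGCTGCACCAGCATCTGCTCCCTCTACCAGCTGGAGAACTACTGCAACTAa

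Windows of 50 bases matching both genes exactly made up 1.63% of Ins2 and 0.691% of Ins1 windows. At 36 bases the shares were 7.90% and 3.41%, and at 75 bases no window was shared. Neither the read length nor the handling of ambiguous reads is stated in the sources used here.

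The IGF ligands differed widely. Igf2, a fetal growth factor gene expressed from the paternal copy (chr7:149836673-149843386, minus strand), was measured at 28.0, 43.5, 27.6 and 25.7 RPKM in replicates 1 to 4, highest in replicate 2 and close together in the others. Most of its transcript, 97.0% of 50-base windows, is also annotated in the overlapping model Gm49394, so the value cannot be split between them. Igf1, the growth factor made by liver and many mesenchymal cells (chr10:87323856-87378515, plus strand), was listed at 0 in replicates 1 and 2. Replicate 3 had 0.04 RPKM and replicate 4 had 0.03 RPKM. Igf2 lay above 1 RPKM (limma, adjusted p = 1.73e-06) and Igf1 below it (2.54e-07). Igf2 exceeded Igf1 by 4.95 ± 0.35 on the log2(RPKM + 1) scale, in 4 of 4 libraries, and by 8.04 with a pseudocount of 0.1, so the size is set by the pseudocount. No fold is given, since Igf1 was listed at 0 in replicates 1 and 2, and its reads were not estimated. Even Gapdh, a gene used by every cell, was listed at 0 to 0.2 RPKM, so a 0 in this table can be a failed estimate. Ins2 exceeded Igf2 by 6.50 ± 0.93, with ratios of 39.0, 85.1, 140 and 165.

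Igf1 is a known product of hepatocytes, fibroblasts and macrophages, and markers of each were measured. The 6 hepatocyte markers summed to 3.16 to 35.4 RPKM, most of it Alb, with Serpina1a and Fgb at 0 in every library. The 6 fibroblast markers summed to 2.10 to 5.07 RPKM, with Lum at 0 throughout and Col3a1 at 0.01 RPKM in 1 library only. The macrophage list summed to 131 to 184 RPKM. Of its 5 measured genes, 2 lay above 1 RPKM and 3 below, beside 65.0% and 26.1% of all genes tested. Those above were Cd68 at 138 ± 19.6 RPKM (SD, n = 4) and Csf1r at 16.1, 17.0, 5.14 and 5.31 RPKM in replicates 1 to 4. The pan-leukocyte gene Ptprc was at 0 to 0.01 RPKM. Endothelial markers summed to 0.98 to 1.31 RPKM. The alpha-cell markers summed to 106 to 950 RPKM and the delta-cell markers to 570 to 6496 RPKM. The part of these cells in the levels was not tested.

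Relatives of insulin beyond these ligands were few. Of 5 insulin and relaxin relatives, 2 lay above 1 RPKM, 1 below and 2 in neither direction, with a median of 0.945 RPKM. Over all genes tested, 65.0% were called above and 26.1% below. Insl3, a peptide known from Leydig cells, stood at 11.9 ± 2.84 RPKM and Insl6 at 2.51 ± 1.10 RPKM (SD, n = 4). Insl5, a hormone of colonic endocrine cells, was at 0.33, 1.06, 1.90 and 0.80 RPKM, and Rln1, relaxin, at 0.45 to 1.24 RPKM. Rln3 lay below 1 RPKM, at 0.1 RPKM in replicate 1 and 0 elsewhere.

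Igf2r was the most abundant receptor. It also carries lysosomal enzymes to lysosomes. Its gene lies at chr17:12875272-12962572 on the minus strand. It was measured at 108, 60.2, 81.9 and 78.2 RPKM in replicates 1 to 4, highest in replicate 1 and lowest in replicate 2. Igf1r, the signalling IGF receptor (chr7:75097143-75378553, plus strand), stood at 7.44, 18.6, 10.2 and 8.82 RPKM, with the opposite libraries at the ends. Igf2r exceeded Igf1r by 2.81 ± 0.85 on the log2(RPKM + 1) scale in 4 of 4 libraries, and the ratio was 14.5, 3.25, 8.01 and 8.87.

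Insr, the insulin receptor (chr8:3150922-3279617, minus strand), was measured at 6.18, 4.69, 3.83 and 3.33 RPKM, highest in replicate 1. It was below Igf1r in 4 of 4 libraries, and Insr minus Igf1r averaged -1.10 ± 0.64 (log2(RPKM + 1)). The Insr to Igf1r ratio was 0.831 in replicate 1 and 0.253, 0.374 and 0.378 in replicates 2 to 4. Igf1r thus made up 54.6% of their sum in replicate 1 and 72.6% to 79.8% in the others. Both lay above 1 RPKM (limma, adjusted p = 0.000617 for Insr and 0.000101 for Igf1r). Both calls held when any 1 library was left out.

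Insrr, a receptor of the same family with no known peptide ligand that responds to alkaline pH (chr3:87600873-87620023, plus strand), was measured at 3.86, 0.85, 3.75 and 3.57 RPKM. Replicate 2 stood alone below 1 RPKM, on an estimated 96 reads, and the other libraries lay close together. Its mean of 3.01 ± 1.44 RPKM lay above 1 RPKM (limma, adjusted p = 0.0258), or 3.73 RPKM without replicate 2. The call was lost without replicate 1 (adjusted p = 0.0875), 3 (0.0785) or 4 (0.0730).

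The substrates were far apart. Irs2 lies at chr8:10986964-11008430 and Irs1 at chr1:82229680-82288014, both on the minus strand. Irs2 was measured at 34.7, 39.0, 27.2 and 24.8 RPKM and Irs1 at 1.02, 0.62, 0.22 and 0.18 RPKM. Both were higher in replicates 1 and 2 than in replicates 3 and 4, the same split as for the Y-linked genes. Irs2 exceeded Irs1 by 4.44 ± 0.21 on the log2(RPKM + 1) scale in 4 of 4 libraries. The Irs2 to Irs1 ratio was 34.0, 62.9, 124 and 138 in replicates 1 to 4, a wider spread than the log2(RPKM + 1) scale shows for a gene as low as Irs1. Irs2 made up 97.1% to 99.3% of substrate RPKM. Irs1 rested on an estimated 225, 126, 49 and 54 reads and lay below 1 RPKM (limma, adjusted p = 0.0270). Its call was lost without replicate 2 (adjusted p = 0.0607), 3 (0.0768) or 4 (0.0768), and only replicate 1 reached 1 RPKM. Of its 50-base windows 30.5% also occur in Gm9747, annotated on the opposite strand, whose reads cannot be told apart without strand.

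**Figure D3:**
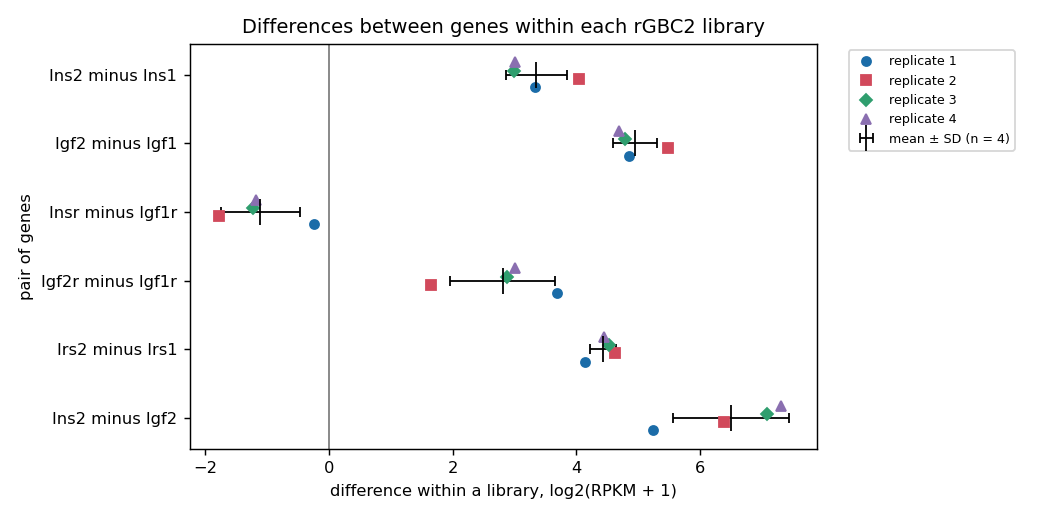
Differences between pairs of genes within each rGBC2 library on the log2(RPKM + 1) scale, with the mean and SD over 4 libraries. Each pair has the same sign in 4 of 4 libraries, and only Insr minus Igf1r is negative.

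The genes did not move together between libraries. Ins2 lay at -1.39 and Ins1 at -1.37 from their own means in replicate 1 on the log2(RPKM + 1) scale, where Insr, Igf2r, Insrr and Irs1 lay 0.38 to 0.46 above theirs. In replicate 2, Igf1r lay 0.75 and Igf2 0.50 above their means, and Insrr lay at -1.01 and Igf2r at -0.41. The likeness of a pair of profiles was taken as the root mean square difference of these deviations over the 4 libraries. Likeness was compared only among the 8 genes called above 1 RPKM, so pairs with Igf1 or Irs1 were left out. Among those compared, it was closest between Igf2 and Irs2 (0.17) and between Insr and Irs2 (0.18). It was 0.43 between Ins1 and Ins2, and widest between Ins1 and Insr (1.20). The measure is not scaled to a gene's own spread, so genes that vary little lie close whatever the shape of their profiles. The log2 SD was 0.34 for Igf2 and 0.29 for Irs2, against 1.07 for Ins1 and 0.93 for Ins2. Whether Igf2 and Irs2 vary together more than the insulin genes do is therefore not shown.

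**Figure D4:**
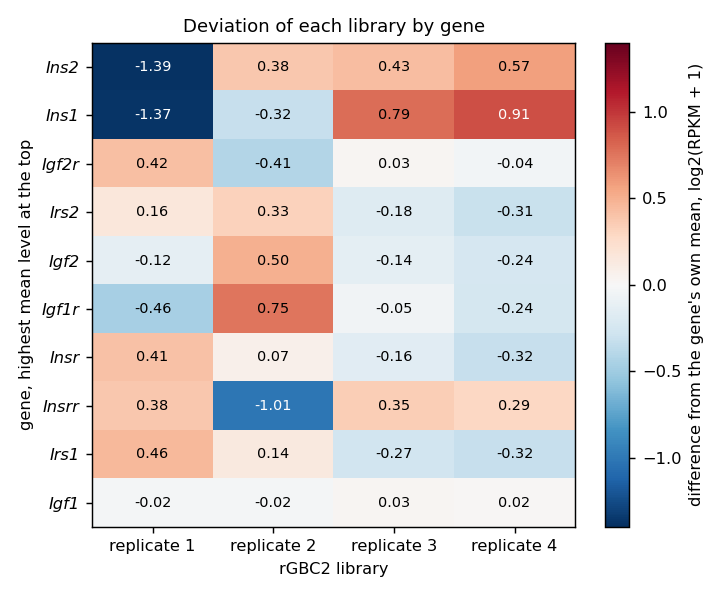
Deviation of each rGBC2 library from the gene's own mean over 4 libraries, on the log2(RPKM + 1) scale, with genes ordered by level. Replicate 1 is the low library for Ins1 and Ins2, and replicate 2 is low for Insrr and high for Igf1r. The values of Igf1 are near 0 because it is near 0 RPKM.

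Among 11955 genes without a 0 and with a mean of at least 1 RPKM, the profiles nearest that of Ins2 were 2310033E01Rik (0.07), Cd74 (0.08) and Cxcr3 (0.09). Those nearest Ins1 were Pvrl4 (0.07), Krt71 (0.09) and the granule protein gene Scg3 (0.11). Nearest Insr were Cdc42ep1, Mical3 and Zfp661 (0.02 each), and nearest Igf1r were Cacna2d1 (0.02), Klb (0.06) and Lphn3 (0.06). Nearest Igf2r were Eml3, Slc4a3 and Pacsin3 (0.01 to 0.02), and nearest Insrr were Kcnh3, Cdhr5 and Tmem82 (0.06 each). Over 4 libraries such lists are loose. Of 24 named for the 8 genes above 1 RPKM, 0 to 11 were named again when 1 library was left out.

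Binding proteins, which hold IGFs outside cells and tune their access to receptors, were split. The list median was 1.92 RPKM. Of the 8, 4 were called above 1 RPKM and 3 below, beside 65.0% and 26.1% of all genes tested. Igfbp7 was highest, at 32.5, 56.1, 76.9 and 89.4 RPKM in replicates 1 to 4. Igfbp3 stood at 15.4 ± 5.56 RPKM, Igfbp5 at 3.49 ± 0.820 RPKM and Igfbp2 at 1.96 ± 0.645 RPKM (SD, n = 4). Igfbp1, a liver-made and insulin-repressed binding protein, did not exceed 0.03 RPKM, and Igfbp6 did not exceed 0.17 RPKM. Igfals, a partner in circulating IGF complexes, was at 1.24, 0.28, 4.06 and 4.08 RPKM, in neither direction. Of the Igf2 mRNA binding proteins, Igf2bp2 lay above 1 RPKM at 16.2 ± 8.71 RPKM and Igf2bp1 below it at 0.355 ± 0.291 RPKM. Igf2bp3, called in neither direction, had 3.07 RPKM in replicate 1 and 0.38 RPKM in replicate 4.

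Of 9 genes that mature and break down these ligands, 7 lay above 1 RPKM, beside 65.0% of all genes, and their median was 4.67 RPKM. The count was 5 to 6 when 1 library was left out. Cpe, which trims cleaved prohormones, stood at 4034 ± 1048 RPKM and Furin, which cleaves the insulin and IGF receptor precursors and pro-IGFs, at 40.9 ± 10.9 RPKM (SD, n = 4). Pcsk2, a proinsulin convertase, was at 161, 104, 623 and 640 RPKM in replicates 1 to 4. Ide, the insulin-degrading enzyme, was at 37.3, 29.3, 17.2 and 14.7 RPKM, higher in replicates 1 and 2 than in the others. Pappa2, a protease that frees IGFs from binding proteins, was lowest in replicate 1, at 1.01 RPKM, and stood at 3.31, 10.8 and 9.11 RPKM in replicates 2 to 4, whereas its relative Pappa was listed at 0 throughout. Pcsk1, another proinsulin convertase, reached 1.95 RPKM in replicate 3 and 1.67 RPKM in replicate 4. It was at 0.1 RPKM in replicate 1 and listed at 0 in replicate 2, and was called in neither direction.

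Downstream of the receptors, 11 of 15 adaptors and brakes lay above 1 RPKM and 3 below, near the 65.0% and 26.1% of all genes, with a median of 7.92 RPKM. Ptprf, a receptor phosphatase, led at 126 ± 39.9 RPKM, followed by the adaptor Grb2 at 46.3 ± 7.38 RPKM, the receptor-binding inhibitor Grb10 at 28.5 ± 10.7 RPKM and the adaptor Sh2b1 at 27.7 ± 5.77 RPKM (SD, n = 4). The further substrates Irs3, which did not exceed 0.02 RPKM, and Irs4, at 0.380 ± 0.365 RPKM, lay below 1 RPKM, as did Enpp1, an inhibitor of the insulin receptor, at 0.268 ± 0.169 RPKM. Irs2 was thus the only Irs gene measured above it.

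In the PI3K-Akt branch 14 of 14 genes lay above 1 RPKM, beside 65.0% of all genes tested. The count was 13 whichever library was left out, and also with no filter or at a threshold of 2 RPKM. The list median was 12.5 RPKM, beside 6.99 RPKM over all genes tested. Akt1, the kinase at its centre, stood at 293 ± 83.5 RPKM, above Akt2 at 26.1 ± 7.45 RPKM (SD, n = 4). Pdpk1, which activates Akt, was at 49.5 ± 14.9 RPKM, Inppl1, a lipid phosphatase, at 33.3 ± 4.78 RPKM, and Pik3r2, a regulatory subunit of PI3K, at a mean of 32.7 RPKM. The lowest were Phlpp2 at 1.88 ± 0.818 RPKM and Phlpp1 at 3.82 ± 0.889 RPKM, phosphatases of Akt.

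In the mTOR branch 10 of 10 lay above 1 RPKM, beside 65.0% of all genes tested, with a median of 21.5 RPKM. The highest were the translation repressor Eif4ebp1 at 72.6 ± 26.6 RPKM, the small GTPase Rheb at 49.5 ± 13.3 RPKM and the mTOR inhibitor Deptor at 45.7 ± 14.7 RPKM. The kinase Mtor itself was at 42.7 ± 8.17 RPKM. The lowest were Rictor, a subunit of mTOR complex 2, at 8.44 ± 5.66 RPKM and the S6 kinase gene Rps6kb1 at 8.17 ± 4.45 RPKM.

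In the Ras-MAPK branch all 9 measured genes lay above 1 RPKM, beside 65.0% of all genes tested, with a median of 42.8 RPKM. The kinase gene Mapk3 stood at 177 ± 29.5 RPKM and that of its activator Map2k1 at 68.5 ± 2.64 RPKM (SD, n = 4). The related activator Map2k2 was at 61.2 ± 10.2 RPKM. The lowest were the Ras activator Sos1 at 13.8 ± 5.06 RPKM and the kinase Braf at 13.7 ± 9.30 RPKM. Of 8 genes acted on by Akt, 7 lay above 1 RPKM, beside 65.0% of all genes tested, with a list median of 19.6 RPKM. Those above included Gsk3a at 62.2 ± 10.7 RPKM and the transcription factor Foxo1 at 36.6 ± 9.24 RPKM. Gsk3b was at 27.5 ± 7.71 RPKM, the lipid synthesis regulator Srebf1 at 26.6 ± 6.51 RPKM and the Rab regulator Tbc1d4 at 3.89 ± 1.64 RPKM. Slc2a4, the insulin-responsive glucose transporter of muscle and fat, ranged between 0.26 RPKM in replicate 1 and 1.20 RPKM in replicate 3, and was called in neither direction.

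**Figure D5:**
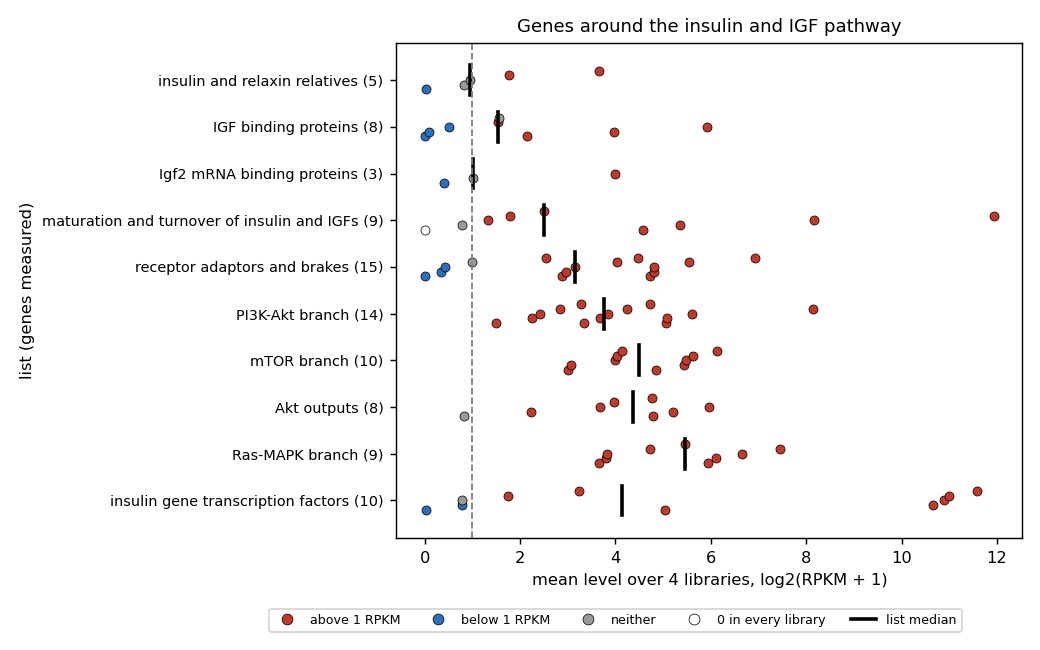
Mean level of each measured gene over 4 rGBC2 libraries on the log2(RPKM + 1) scale, by list, with the list median as a bar and 1 RPKM as a dashed line. Red, blue and grey points were called above, below or in neither direction. All 14, 10 and 9 genes of the PI3K-Akt, mTOR and Ras-MAPK lists lie above 1 RPKM, beside 65.0% of all genes tested. With any 1 library left out, 13 of the PI3K-Akt list were called above.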

How the data were processed

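RNA was measured in 4 libraries of sorted rGBC2 cells. The authors deposited RPKM values with 2 decimals, on 1 RefSeq transcript per gene. Bowtie, CASAVA 1.8.2 and build mm9 are named, per the submitters' processing notes. The sources used here give no counting program, strand setting or read length. The table holds 6 per-sample columns that match no sample here, and they were not used.

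Levels were tested on log2(RPKM + 1) against 1 RPKM with limma 3.58.1 in R 4.3.3 (two-sided, mean-variance trend, Benjamini-Hochberg over 16919 genes, threshold 0.05, leaving out 3458 genes listed at 0 throughout). On simulated data 7.6% of 1000 genes set at 1 RPKM, 73% of 100 set at 2 and 97% of 100 set at 4 RPKM were called. Differences within libraries were tested with an exact sign-flip permutation test. Reads per library were estimated from low values of 14 to 32 olfactory receptor genes under 1100 bases, as the depth at which the values came nearest to whole reads (largest error 0.0047 RPKM). Transcript lengths and sequences came from GENCODE M21 and RefSeq (GRCm38), matched by accession for 9 of the 10 genes (not Igf1). Starts in the deposited table count from 0, so 1 was added to each.

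The genes and 10 lists (92 genes, 91 measured) were chosen with earlier results of these data known. Of each list the text names the genes with the highest and lowest means, and others chosen after their values were seen. Some list genes are counted but not reported by name here. Alternatives were pseudocount, threshold, filter, scaling, variance trend and leaving out each library.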

Additional observations from a re-analysis of the deposited data

Results flagged for a closer look

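In 3 of the 10 genes, 1 library lay apart from the other 3 by more than Dixon's 95% critical value for 4 samples. Chance gives such a value in about 1 in 20 groups. For Ins2 the library apart was replicate 1, at 1091 RPKM, with a gap of 0.8298 of the whole range, barely over the limit, and the mean was 3221 RPKM with it and 3932 RPKM without it. For Igf2 it was replicate 2, at 43.5 RPKM (gap 0.873 of the range), with a mean of 31.2 RPKM, or 27.1 RPKM without it. For Insrr it was replicate 2, at 0.85 RPKM (gap 0.904), with a mean of 3.01 RPKM, or 3.73 RPKM without it.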

How the results depend on the processing

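Each of the 6 differences had the same sign in 4 of 4 libraries. Changing the pseudocount, the library scaling or the libraries kept could therefore not reverse a direction. Only the removal of length scaling could, and there Ins2 minus Ins1 stayed positive at its lowest value (2.20). Igf2 minus Igf1 was 8.04 with a pseudocount of 0.1. The 8 calls of single genes other than Irs1 and Insrr held under every alternative run, Igf1 under each filter that kept it. Irs1 passed on its side in 6 of 12 alternatives and Insrr in 7. Genes below 1 RPKM numbered 1 of the 10 at a threshold of 0.5 RPKM, with no filter, with a filter at a mean of 0.1 RPKM (which leaves out Igf1) and without the variance trend, and 1 to 2 with 1 library left out. At 0.5 RPKM, 0 Igf2 mRNA binding proteins and 1 insulin transcription factor lay below, and that factor count was also 1 with a pseudocount of 0.1 and with the 0.1 RPKM filter. Of all 16919 genes tested, 4423 lay below in the main fit. That count was 3621 at 0.5 RPKM, 4352 with a pseudocount of 0.1 and 4343 without the variance trend. At 2 RPKM, 1 relaxin relative lay above and 3 below, 4 maturation genes lay above and 1 Akt output below. At that threshold 10015 of the 16919 genes lay above and 5244 below. With no filter 7777 of all genes and 1 maturation gene lay below, and with the 0.1 RPKM filter 1889 of all genes, 0 relaxin relatives and 1 binding protein. With 1 library left out, 0 to 2 relaxin relatives lay below, beside 4120 to 4204 of all genes. Of the 24 nearest profiles, 6 recurred with a pseudocount of 0.1 and 0 to 11 with 1 library left out. Causes were not tested. No paired analysis was possible because there is a single group, so replicate numbers pair no groups (gene differences were taken within libraries).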

Other observations

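Annotated neighbours share sequence with some of these genes. In GENCODE, 97.0% of 50-base windows of the Igf2 transcript also occur in Gm49394, a protein-coding model on the same strand. Of Irs1 windows 30.5% occur in Gm9747, and of Irs2 windows 113 of 6274 in 9530052E02Rik, both overlapping on the opposite strand. The strand setting of the counting is unknown here. No 50-base window of Igf1r, Igf2r or Insrr occurs in another gene.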
